A study of Homo sapiens with 12 samples.

Results

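The genes described are 8 components of the PI3K and AKT pathway, chosen by gene symbol from the 20531 genes listed in RNAseq of the HER2-amplified breast cancer cell line SKBR-3. They are the adaptors IRS1 and IRS2, the PI3K catalytic subunit PIK3CA, the PI3K regulatory subunits PIK3R1 and PIK3R3, the kinases AKT1 and AKT2, and the lipid phosphatase INPP4B. The rule uses names and no measured value, but the 8 genes were chosen with earlier results of these data known. Each of the 8 passed the count filter in every comparison. The experiment had 4 groups of 3 replicates and asked whether the transcriptional response to a HER2 inhibitor needs the transcription factor FOXA1. Cells carried either a FOXA1 siRNA pool or a non-targeting (NT) control pool for 48 h by the labels and were then kept for 24 h in lapatinib, which blocks the kinases HER2 and EGFR, at 300 nM, or in the solvent DMSO. The study's methods give a shorter time in siRNA before the drug than the labels do. All groups thus carried a transfected siRNA pool and were cultured in medium with serum, and they represent 1 cell line. No source says whether replicates were separate cultures, so p-values measure only the spread between these samples.

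In HER2-amplified cells the receptor, largely through its partner HER3, recruits the PI3K regulatory subunit, which releases the catalytic subunit to make the membrane lipid that draws AKT to the membrane and allows its activation. The insulin and IGF1 receptors feed the same enzyme through the IRS adaptors. Phosphatases such as INPP4B remove phosphates from the lipid and end the signal, and active AKT in turn restrains FOXO factors, the TSC complex and GSK3 kinases. RNAseq measured the transcripts of these components and not their activity or phosphorylation.

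Matched by Entrez gene ID to RefSeq (GRCh38.p14), PIK3CA (Entrez gene 5290) at chr3:179148126-179240093 and PIK3R1 (Entrez gene 5295) at chr5:68215756-68301821 lie on the plus strand. On the minus strand lie IRS1 (Entrez gene 3667) at chr2:226731312-226799820, IRS2 (Entrez gene 8660) at chr13:109752695-109786583, PIK3R3 (Entrez gene 8503) at chr1:46040140-46174901, AKT1 (Entrez gene 207) at chr14:104769349-104795748, AKT2 (Entrez gene 208) at chr19:40230317-40285345 and INPP4B (Entrez gene 8821) at chr4:142023160-142846535.

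Library totals of expected counts ran from 25749578 to 32271850 (median 30542429). FOXA1, the target of the siRNA, was at 8307 to 8765 normalized counts with NT siRNA and DMSO and at 12166 to 13174 with NT siRNA and lapatinib. After FOXA1 siRNA its counts were 1160 to 1563 in DMSO and 1641 to 2383 in lapatinib, so each library matched its siRNA label. Markers of the line were high, with ERBB2 (HER2) at 2718 to 6105 TPM and KRT8 at 2932 to 4216 TPM, except for CDH1 at 0.03 to 0.25 TPM, and ESR1 was at 0.16 to 0.98 TPM. The 7 marker genes of other cell types summed to 5.40 to 6.07 TPM with NT siRNA and DMSO, 3.37 to 4.5 with NT siRNA and lapatinib, 5.70 to 7.07 with FOXA1 siRNA and DMSO and 4.98 to 5.22 with both. COL1A1 gave 2.74 to 5.58 TPM of that sum, PTPRC and PECAM1 were at or near 0, and a part of these markers in the results was not tested. In bulk RNA, fewer cells of a kind and less RNA per cell cannot be told apart.

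Normalized counts are counts scaled to the average depth of the 12 libraries by TMM. TPM, the share of transcripts, is also corrected for gene length and is the scale used to compare 1 gene with another. A gene was called raised or lowered when its edgeR adjusted p, the p of edgeR's quasi-likelihood test after Benjamini-Hochberg adjustment over all genes tested, was under 0.05, with no minimum fold change. The replicate numbers pair the samples across groups, and a value from a model with these numbers as a block (the replicate block) is given where it changed a call.

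By TPM level in cells with NT siRNA and DMSO, AKT1 was highest at 238 ± 2.74 (SD, n = 3), followed by PIK3R3 at 80.0 ± 8.24, AKT2 at 55.9 ± 3.48, PIK3CA at 17.9 ± 0.496 and PIK3R1 at 7.84 ± 0.332. INPP4B at 3.39 ± 0.329 and IRS1 at 3.36 ± 0.241 came next, and IRS2 was lowest at 0.0933 ± 0.0289. Neighbours in this order did not overlap between libraries, apart from INPP4B and IRS1, which overlapped in each of the 4 groups and changed places between them. AKT1 thus stayed the most abundant of the 8 transcripts after lapatinib with FOXA1 siRNA, where it was at 121 ± 4.86 TPM, and PIK3R3 was the second at 79.5 ± 5.49. Between groups, IRS2 had by far the widest range, 3.81 between its lowest and highest group mean of log2(normalized count + 1). INPP4B spanned 0.97, AKT1 0.97, PIK3CA 0.56, IRS1 0.50, PIK3R3 0.33, AKT2 0.18 and PIK3R1 0.17 on the same scale.

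**Figure D1:**
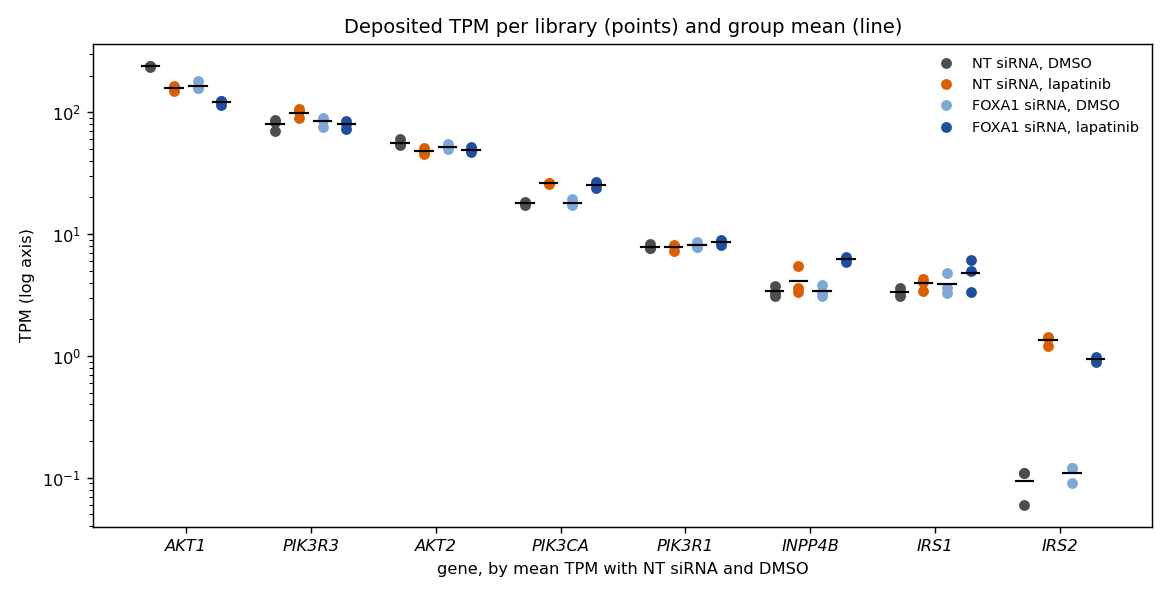
Deposited TPM (vertical log axis) of the 8 genes in the 12 libraries, with 1 point per library, a line at each group mean and the genes ordered by their mean TPM with NT siRNA and DMSO. AKT1 is the highest in every group, and IRS2 lies near 0.1 TPM in DMSO and near 1 TPM in lapatinib.

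With NT siRNA, lapatinib raised 4 of the 8 genes (IRS1, IRS2, PIK3CA and PIK3R3) and lowered 2 (AKT1 and AKT2). Over all 13713 genes tested, 30.5% were raised and 29.2% lowered, and 7 of the 8 had groups without overlap (PIK3R1 being the other), as had 66.3% of all genes tested. The call shares of the 8 lay near those backgrounds. Their median log2 fold change was 0.31, against 0.03 over all genes tested. With FOXA1 siRNA, lapatinib raised 3 of the 8 (IRS2, PIK3CA and INPP4B) and lowered 1 (AKT1), against 29.0% raised and 29.1% lowered of 13745 genes. In 4 of the 8 the groups did not overlap, against 65.3% of all genes tested, and the median of the 8 was 0.24, against 0.01 over all genes tested. With the replicate block, 5 were raised and 2 lowered with FOXA1 siRNA, the added calls being IRS1, PIK3R1 and AKT2, against 34.5% raised and 34.1% lowered over all genes in that model. With NT siRNA the block added INPP4B to the raised genes, against 34.5% raised and 32.8% lowered.

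FOXA1 siRNA in DMSO lowered AKT1 alone among the 8 and raised none, against 21.9% raised and 21.3% lowered of 13694 genes. By an unadjusted p under 0.05 the count was also 1, and DESeq2 called AKT1 as well. With the replicate block PIK3R3 was called as raised in addition, by 0.08, against 30.3% raised and 30.2% lowered of all genes. AKT1 was also the only 1 of the 8 without overlap, against 53.7% of all genes tested. The median of the 8 was 0.07, against -0.01 over all genes tested. FOXA1 siRNA in lapatinib lowered 3 of the 8 (IRS2, PIK3R3 and AKT1) and raised 1 (INPP4B), against 22.7% raised and 22.2% lowered of 13727 genes. The same 4 were those without overlap, against 55.5% of all genes tested. With the replicate block 3 were raised, with IRS1 and PIK3R1 added, against 30.6% raised and 31.1% lowered of all genes.

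**Figure D2:**
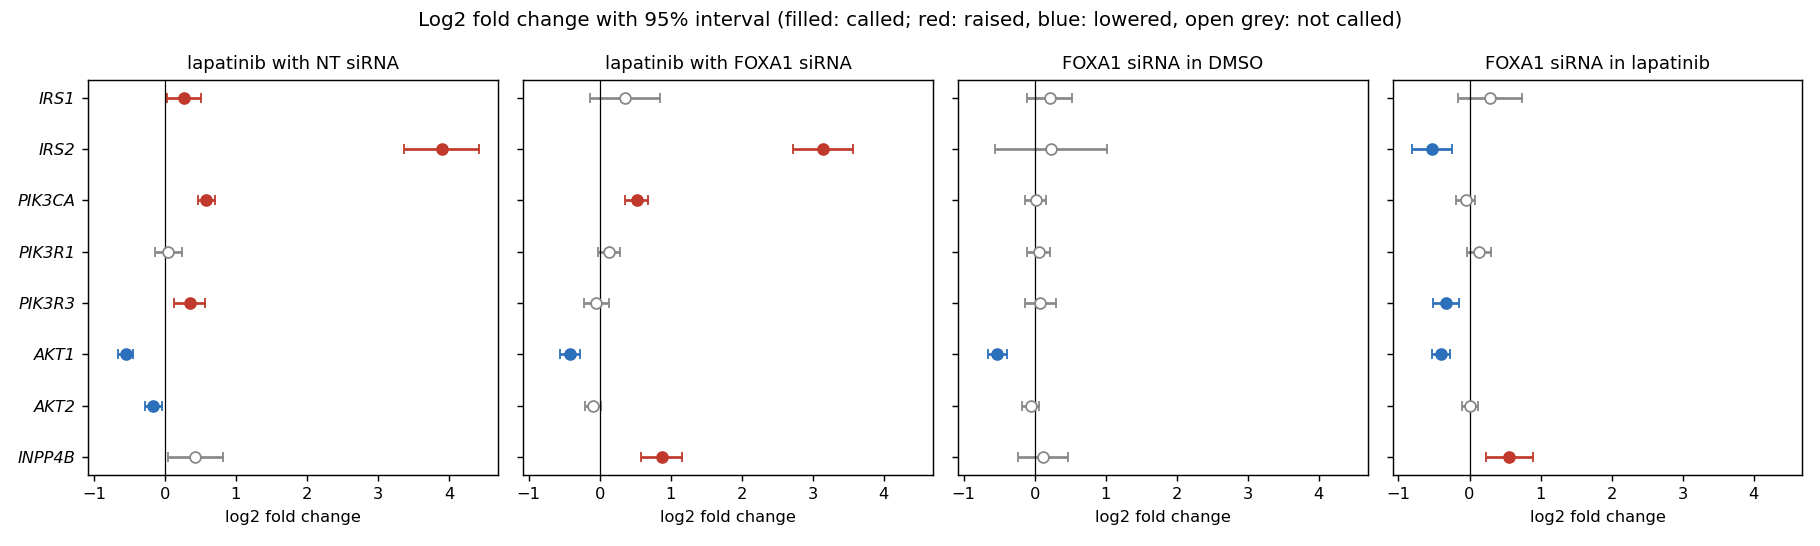
Log2 fold change (horizontal axis) of the 8 genes in the 4 comparisons, with 95% intervals from edgeR; filled points were called at an adjusted p under 0.05 (red raised, blue lowered) and open points were not. IRS2 after lapatinib lies at 3.90 with NT siRNA and 3.14 with FOXA1 siRNA, and AKT1 is below 0 in all 4 panels.

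IRS1 and IRS2 are cytoplasmic adaptors that the insulin and IGF1 receptors phosphorylate on tyrosine and that then bind the PI3K regulatory subunits. Since the IRS pair differed most in response, the 250 bases before each RefSeq start site (GRCh38.p14) are shown for comparison, read on the minus strand as both genes lie on it. Capitals mark the CCAAT box, searched as CCAAT on both strands, a search added after the sequences were seen.

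IRS1, chr2:226799821-226800070: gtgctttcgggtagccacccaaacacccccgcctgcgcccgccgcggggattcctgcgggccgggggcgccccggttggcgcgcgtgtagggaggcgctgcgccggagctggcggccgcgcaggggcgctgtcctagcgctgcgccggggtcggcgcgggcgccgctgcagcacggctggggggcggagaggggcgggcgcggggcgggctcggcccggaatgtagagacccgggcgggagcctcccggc

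IRS2, chr13:109786584-109786833: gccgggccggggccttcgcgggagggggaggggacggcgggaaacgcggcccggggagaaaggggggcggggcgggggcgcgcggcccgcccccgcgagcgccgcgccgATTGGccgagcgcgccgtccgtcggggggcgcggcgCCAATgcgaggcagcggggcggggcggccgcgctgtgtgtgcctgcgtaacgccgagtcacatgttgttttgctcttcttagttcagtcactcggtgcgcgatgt

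The IRS1 window, of 80.8% GC, held no CCAAT box, and the IRS2 window, of 76.4% GC, held 2, beginning 141 and 105 bases before the start site. Of 35116 RefSeq promoter windows, 32.0% held at least 1 in the same 250 bases. The forkhead motifs GTAAACA and GTCAACA, searched on both strands over 250 bases before to 50 after the start site, were in neither window, and were in 3.42% and 2.32% of all windows. These matches describe letters and show no binding.

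IRS2 was at 6.89, 11.9 and 12.5 normalized counts with NT siRNA and DMSO and at 13, 10.2 and 13.3 with FOXA1 siRNA and DMSO. After lapatinib it was at 162, 163 and 140 with NT siRNA and at 102, 111 and 109 with FOXA1 siRNA. Every lapatinib-treated library was above every DMSO library, and in lapatinib the FOXA1 siRNA libraries were all below the NT siRNA libraries. Lapatinib raised IRS2 by 3.90 ± 0.23 (SE) on the log2 scale with NT siRNA, with an edgeR adjusted p of 5.77e-06, and by 3.14 ± 0.19 with FOXA1 siRNA, with an edgeR adjusted p of 6.56e-06. The means differed 14.8-fold and 8.85-fold. FOXA1 siRNA lowered IRS2 in lapatinib (log2 fold change -0.53 ± 0.12, edgeR adjusted p = 0.00946). In DMSO the log2 fold change was 0.23, with a 95% interval of -0.55 to 1.02 that reflects counts of 7 to 14 reads a library, and no difference was detectable at that depth.

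IRS1 was at 490, 496 and 441 normalized counts with NT siRNA and DMSO and at 584, 613 and 499 with NT siRNA and lapatinib. After FOXA1 siRNA it was at 503, 667 and 464 in DMSO and at 706, 883 and 486 in lapatinib. The NT siRNA groups did not overlap, by a margin of under 3 counts, while the FOXA1 siRNA groups overlapped widely and replicate 2 was the highest of its group in all 4. On the TPM scale the NT siRNA groups overlapped as well (3.11 to 3.59 in DMSO and 3.42 to 4.32 in lapatinib). Lapatinib with NT siRNA raised IRS1 by 0.27 ± 0.10 (edgeR adjusted p = 0.0476), the weakest of the calls. It was not called when any 1 of 5 of the 6 libraries was left out (all but replicate 3 of NT siRNA and lapatinib), with edgeR adjusted p up to 0.189. The call was lost as well with RLE or upper-quartile factors, by DESeq2, with no filter, with 10 counts required in every sample and with all 12 samples in 1 model (adjusted p 0.0557 to 0.274), and was kept with the replicate block. With FOXA1 siRNA the log2 fold change was 0.35 ± 0.21 (edgeR adjusted p = 0.188), and with the replicate block it was 0.33 ± 0.09 and called (edgeR adjusted p = 0.00722). Leaving out 1 library moved the value without the block between 0.14 and 0.56, and it was called without replicate 3 of both treatments (edgeR adjusted p = 0.0276). After FOXA1 siRNA the log2 fold change was 0.21 (95% interval -0.11 to 0.53) in DMSO and 0.29 (-0.16 to 0.73) in lapatinib, the latter called with the block at 0.27 (edgeR adjusted p = 0.0224). In lapatinib it lay between 0.07 and 0.49 when 1 library was left out, and was called without replicate 3 of both treatments (edgeR adjusted p = 0.0248).

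PIK3CA encodes the alpha catalytic subunit of PI3K, the form most often mutated in breast cancer. It was at 1062, 1068 and 1064 normalized counts with NT siRNA and DMSO, at 1584, 1552 and 1583 with NT siRNA and lapatinib, at 1153, 1011 and 1039 with FOXA1 siRNA and DMSO and at 1599, 1428 and 1551 with both. The lapatinib libraries were above all DMSO libraries with either siRNA, and the siRNA groups overlapped within each drug. Lapatinib raised PIK3CA by 0.58 ± 0.05 with NT siRNA (edgeR adjusted p = 4.00e-05) and by 0.52 ± 0.07 with FOXA1 siRNA (edgeR adjusted p = 0.000346). The change after FOXA1 siRNA was 0.02 (95% interval -0.13 to 0.16) in DMSO and -0.05 (-0.19 to 0.08) in lapatinib, so the intervals held no change above 0.2 in size.

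Among the promoter windows of the 8 genes, the window of PIK3CA alone held a forkhead motif, shown here as agttcgttgttTGTTTACacgatgtgagc (GRCh38.p14, plus strand, chr3:179148197-179148225), with GTAAACA on the minus strand in capitals, read as TGTTTAC. It begins 149 bases before the start site on which this window is placed, at position 179148357 of chromosome 3, and 82 bases after the first base of the gene as RefSeq bounds it, so it lies within the span given above. IRS1, IRS2 and PIK3CA had 1 window each, AKT1 and AKT2 2 each, PIK3R1 4, and PIK3R3 and INPP4B 6 each. Of all 35116 windows, 3.42% held GTAAACA and 2.32% GTCAACA. These shares count windows and not genes, and whether 1 match among all windows of the 8 genes exceeds them was not tested.

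PIK3R1 and PIK3R3 encode regulatory subunits that hold and stabilize the catalytic subunit and bind phosphorylated receptors and adaptors. PIK3R1 was at 811, 778 and 877 normalized counts with NT siRNA and DMSO, at 864, 772 and 880 with NT siRNA and lapatinib, at 815, 820 and 904 with FOXA1 siRNA and DMSO and at 947, 874 and 951 with both. The groups overlapped in each comparison, and PIK3R1 was called in none. The log2 fold change after lapatinib was 0.05 (95% interval -0.13 to 0.23) with NT siRNA and 0.13 (-0.02 to 0.29) with FOXA1 siRNA. With the block the second was called (edgeR adjusted p = 0.0457), as was the change of 0.13 after FOXA1 siRNA in lapatinib (edgeR adjusted p = 0.0348).

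PIK3R3, present at roughly 10 times the TPM level of PIK3R1, was at 7265, 5893 and 7342 normalized counts with NT siRNA and DMSO and at 8767, 7710 and 9207 with NT siRNA and lapatinib. After FOXA1 siRNA it was at 7358, 6429 and 7677 in DMSO and at 6945, 6344 and 7321 in lapatinib. With NT siRNA the lapatinib libraries were all above the DMSO libraries, whereas with FOXA1 siRNA the groups overlapped and each lapatinib library was slightly below the DMSO library of the same number. Lapatinib with NT siRNA raised PIK3R3 by 0.35 ± 0.09 (edgeR adjusted p = 0.0127). That value fell to 0.23 without replicate 2 of NT siRNA and DMSO, the lowest library of its group, and was called still. With FOXA1 siRNA the log2 fold change after lapatinib was -0.05 (95% interval -0.23 to 0.13). FOXA1 siRNA in lapatinib lowered PIK3R3 (log2 fold change -0.33 ± 0.08, edgeR adjusted p = 0.0109), and in DMSO the log2 fold change was 0.08 ± 0.09 (edgeR adjusted p = 0.520), called with the block (edgeR adjusted p = 0.0356).

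AKT1 and AKT2 encode the serine/threonine kinases that carry the signal onward, AKT1 mostly to growth and survival and AKT2 mostly to glucose metabolism. AKT1 was at 9758, 9489 and 9709 normalized counts with NT siRNA and DMSO and at 6133, 6649 and 6666 with NT siRNA and lapatinib. After FOXA1 siRNA it was at 6354, 7241 and 6350 in DMSO and at 4672, 5074 and 5092 in lapatinib. The untreated NT siRNA libraries were the highest and the libraries with both treatments the lowest, and no library of either set overlapped with the other groups. AKT1 was the only one of the 8 called in all 4 comparisons, and lowered in each. Its log2 fold change after lapatinib was -0.55 ± 0.05 with NT siRNA (edgeR adjusted p = 2.87e-05) and -0.42 ± 0.06 with FOXA1 siRNA (edgeR adjusted p = 0.000610). After FOXA1 siRNA it was -0.52 ± 0.06 in DMSO (edgeR adjusted p = 0.000293) and -0.40 ± 0.05 in lapatinib (edgeR adjusted p = 0.000613). These calls held in all leave-one-out fits and in every alternative without a fold minimum.

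AKT2 was at 3650, 3824 and 3547 normalized counts with NT siRNA and DMSO, at 3142, 3359 and 3221 with NT siRNA and lapatinib, at 3477, 3625 and 3403 with FOXA1 siRNA and DMSO and at 3171, 3407 and 3203 with both. Replicate 2 was the highest library in each group. Lapatinib with NT siRNA lowered AKT2 (log2 fold change -0.16 ± 0.05, edgeR adjusted p = 0.0319). It was not called without replicate 1 of NT siRNA and DMSO or without replicate 1 or 3 of NT siRNA and lapatinib (edgeR adjusted p 0.0717, 0.103 and 0.0874). With FOXA1 siRNA the change was -0.09 ± 0.05 (edgeR adjusted p = 0.121), and with the block it was called (edgeR adjusted p = 0.0240). FOXA1 siRNA gave -0.06 (95% interval -0.17 to 0.06) in DMSO and 0.00 (-0.11 to 0.12) in lapatinib.

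INPP4B encodes a phosphatase that removes a phosphate from a PI3K lipid product and counts as a brake on AKT in breast epithelium. It was at 137, 173 and 150 normalized counts with NT siRNA and DMSO and at 181, 250 and 178 with NT siRNA and lapatinib. After FOXA1 siRNA it was at 194, 153 and 148 in DMSO and at 317, 306 and 280 in lapatinib. The 3 libraries with both treatments were above all 9 others. Lapatinib with FOXA1 siRNA raised INPP4B by 0.87 ± 0.13 (edgeR adjusted p = 0.000510). With NT siRNA the log2 fold change was 0.43 ± 0.17 (edgeR adjusted p = 0.0572), and it was called with the block (0.42 ± 0.11, edgeR adjusted p = 0.00943). Leaving out 1 library moved it between 0.25 and 0.52, and it was called without replicate 2 of NT siRNA and DMSO (edgeR adjusted p = 0.0439). FOXA1 siRNA in lapatinib raised it by 0.56 ± 0.14 (edgeR adjusted p = 0.0143), a call that was lost without replicate 1 or 3 of NT siRNA and lapatinib or replicate 1 of both treatments (edgeR adjusted p 0.0528, 0.0540 and 0.0598). In DMSO the change was 0.12 (95% interval -0.23 to 0.47). INPP4B had the least constant deposited length of the 8, from 2702 to 3318 bases between libraries, and on the TPM scale its NT siRNA groups overlapped (3.11 to 3.75 in DMSO and 3.37 to 5.43 in lapatinib).

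**Figure D3:**
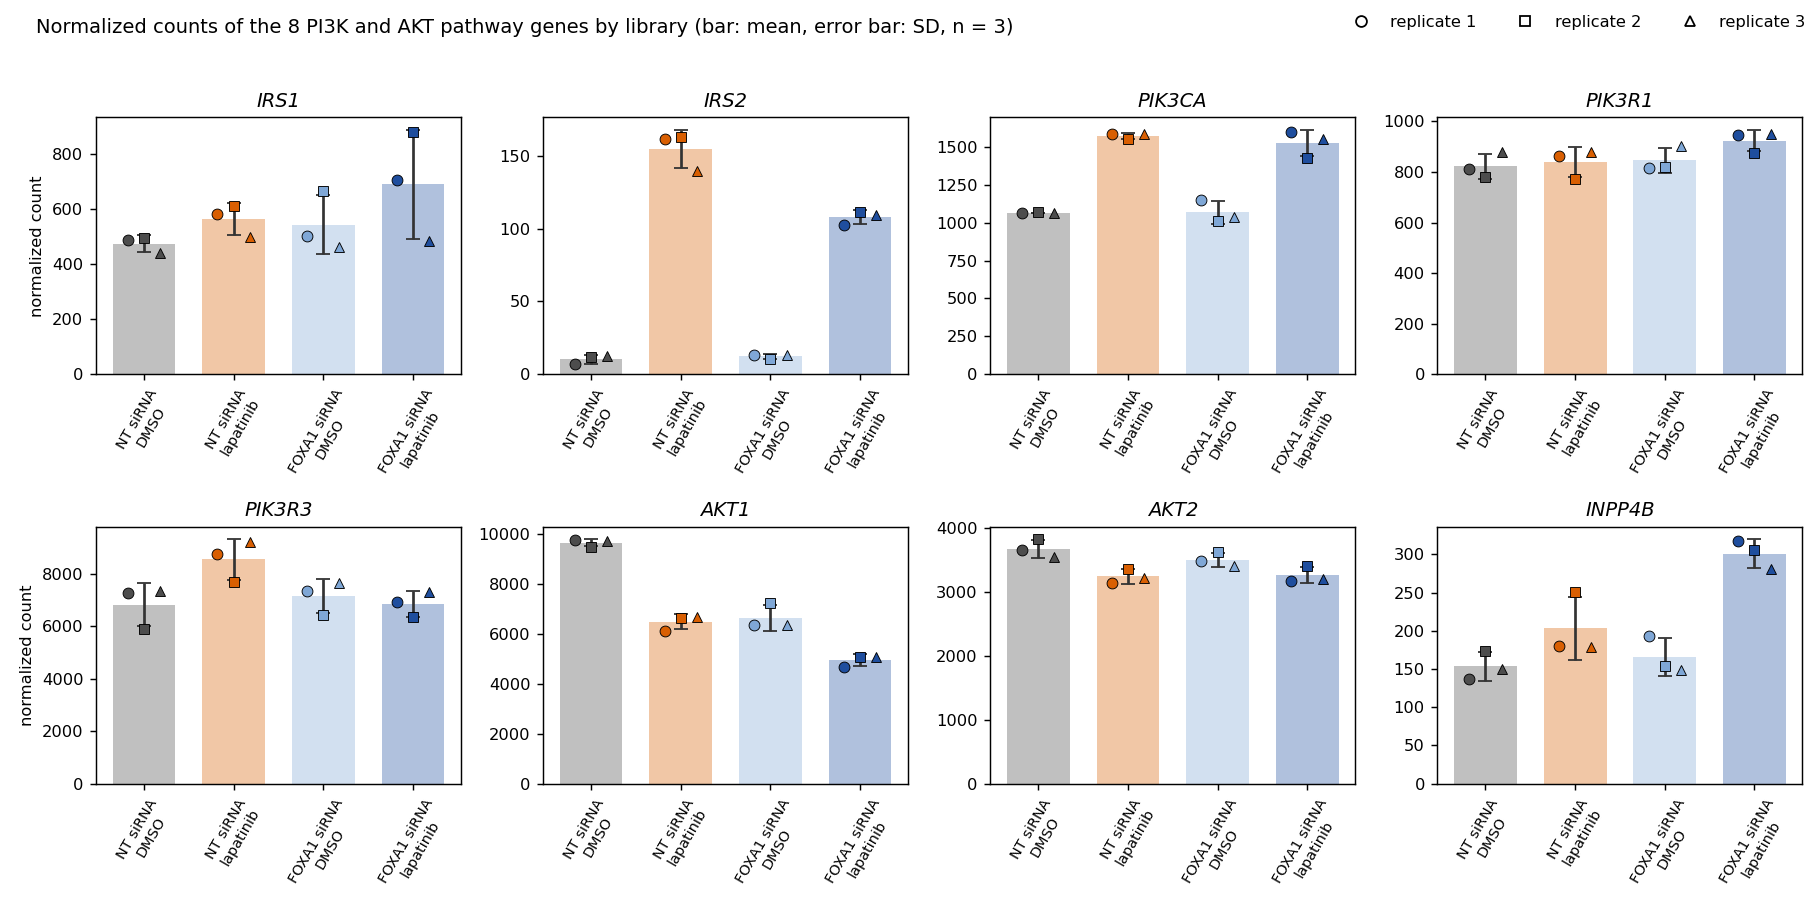
Normalized counts (vertical axis, from 0) of each of the 8 genes in the 4 groups, with bars at the mean, error bars for the SD (n = 3) and a marker for each replicate number. AKT1 is highest with NT siRNA and DMSO and lowest with both treatments, INPP4B is highest with both, and replicate 2 of PIK3R3 is the lowest of its group throughout.

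Whether the response to lapatinib differed with FOXA1 siRNA was tested by the siRNA-by-drug term of a model over the 12 samples. None of the 8 was called by edgeR, against 7.19% of the 14012 genes tested, and DESeq2 called none either. Without adjustment 2 had p under 0.05 in edgeR. These were IRS2, with a difference of responses, FOXA1 siRNA minus NT siRNA, of -0.74 ± 0.30 (edgeR adjusted p = 0.200), and PIK3R3, at -0.38 ± 0.14 (edgeR adjusted p = 0.117). With the replicate block, under which 20.4% of all genes were called, PIK3R3 was called (-0.38 ± 0.05, edgeR adjusted p = 0.000192) and IRS2 was not (edgeR adjusted p = 0.131). Without the block the interaction was 0.46 (95% interval -0.02 to 0.93) for INPP4B and 0.15 (-0.03 to 0.33) for AKT1. With the block the intervals were 0.05 to 0.87 for INPP4B, 0.0096 to 0.29 for AKT1 and -1.43 to -0.045 for IRS2. These intervals are not adjusted over genes, and neither INPP4B nor AKT1 was called with the block (edgeR adjusted p = 0.105 and 0.125). At the threshold used, the fall of AKT1 after lapatinib was thus not shown to differ between the siRNA pools.

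Ratios of TPM within a library compare related genes free of library scaling. IRS1 exceeded IRS2 by 28.3- to 56.3-fold in the libraries with NT siRNA and DMSO and by 2.85- to 3-fold after lapatinib. With FOXA1 siRNA the ratio was 27.5- to 53.0-fold in DMSO and 3.55- to 6.32-fold in lapatinib. AKT1 exceeded AKT2 by 4.01- to 4.49-fold with NT siRNA and DMSO, by 3.22- to 3.35-fold with NT siRNA and lapatinib, by 3.02- to 3.27-fold with FOXA1 siRNA and DMSO and by 2.39- to 2.53-fold with both. PIK3R3 exceeded PIK3R1 by 9.21- to 10.9-fold with NT siRNA and DMSO, by 12.3- to 13.2-fold with NT siRNA and lapatinib, by 9.76- to 11.1-fold with FOXA1 siRNA and DMSO and by 9.03- to 9.73-fold with both. Of 12 two-sided exact permutation tests of 3 samples against 3, 10 gave p = 0.1, the smallest p this design allows, and an adjusted p of 0.12. The other 2, IRS2 to IRS1 and PIK3R3 to PIK3R1 after FOXA1 siRNA in DMSO, gave p = 0.6 by the same exact test.

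The rest of the pathway was described from 5 lists of 64 genes by role, of which 59 were tested in each comparison and 1 (DEPTOR) was not analysed here. Lapatinib raised 20 and lowered 16 of the 59 with NT siRNA and raised 22 and lowered 18 with FOXA1 siRNA. These are 33.9% and 27.1% of the 59 against 30.5% and 29.2% of all genes, and 37.3% and 30.5% against 29.0% and 29.1%, and so lay near the shares of all genes. FOXA1 siRNA raised 18 and lowered 13 in DMSO (30.5% and 22.0%, against 21.9% and 21.3% of all genes) and raised 11 and lowered 16 in lapatinib (18.6% and 27.1%, against 22.7% and 22.2%). With the replicate block the latter counts were 18 and 22, against 30.6% raised and 31.1% lowered of all genes in that model. The genes named from these lists had a mean of at least 100 normalized counts. The median log2 fold changes of the 59 genes were 0.07, -0.04, 0.04 and -0.04 in that order, against 0.03, 0.01, -0.01 and -0.01 over all genes tested.

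Among receptors and adaptors, lapatinib raised 5 of 9 tested genes with either siRNA (55.6%). Over all genes 30.5% were raised with NT siRNA and 29.0% with FOXA1 siRNA, and no list was tested against such shares. With NT siRNA it raised INSR, the insulin receptor, from 352, 416 and 336 normalized counts to 1208, 1767 and 1134 (log2 fold change 1.92 ± 0.18, edgeR adjusted p = 3.87e-05). Of the 9, GRB7, an adaptor encoded beside HER2, rose most, by 2.11 (NT siRNA) and 1.98 (FOXA1 siRNA). GAB2, a scaffold that binds PI3K, was raised by 1.75 and 1.88 in the same order, and GRB2, which links receptors to RAS, was lowered with either siRNA (log2 fold changes -0.28 and -0.29). FOXA1 siRNA lowered the counts of IGF1R, the IGF1 receptor, (-0.49 in DMSO and -0.62 in lapatinib). On the TPM scale its DMSO groups overlapped, at 3.59 to 5.15 with NT siRNA and 3.72 to 4.74 with FOXA1 siRNA. In lapatinib its TPM was 7.28 to 8.78 with NT siRNA and 5.10 to 6.68 with FOXA1 siRNA, without overlap. In DMSO FOXA1 siRNA raised INSR by 0.84 and GRB10, which inhibits insulin receptor signaling, by 0.42.

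Of the other PI3K subunits, 10 of 12 were tested. With NT siRNA, lapatinib raised 4 and lowered 2 of them, against 30.5% raised and 29.2% lowered of all genes. With FOXA1 siRNA it raised 5 and lowered 1, against 29.0% and 29.1% of all genes. With the replicate block it raised 7 and lowered 2 with NT siRNA, against 34.5% and 32.8% of all genes in that model. The block counts with FOXA1 siRNA were 6 raised and 2 lowered, against 34.5% and 34.1%. PIK3IP1, a transmembrane inhibitor of PI3K, was raised from 535, 745 and 473 normalized counts to 2619, 2800 and 2722 with NT siRNA (2.24 ± 0.15, edgeR adjusted p = 9.71e-06) and by 1.98 with FOXA1 siRNA. PIK3R2, another regulatory subunit, was lowered with either siRNA (-0.41 and -0.35). FOXA1 siRNA lowered PIK3CB, the beta catalytic subunit, from 1827, 1742 and 1947 normalized counts to 722, 749 and 693 in DMSO (-1.34 ± 0.06, edgeR adjusted p = 7.75e-06). In lapatinib the log2 fold change of PIK3CB was -1.37 ± 0.07. The transcript of the beta subunit thus fell with FOXA1 siRNA in DMSO and in lapatinib, while that of PIK3CA, of the same class, was called in neither. PIK3C2B, a class II enzyme, was raised by FOXA1 siRNA by 0.33 in DMSO and 0.51 in lapatinib.

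All 10 lipid and AKT phosphatases were tested. Lapatinib raised 4 and lowered 2 with NT siRNA, against 30.5% raised and 29.2% lowered of all genes. With FOXA1 siRNA it raised 6 and lowered 2, against 29.0% and 29.1% of all genes. With the replicate block the latter counts were 6 and 4, against 34.5% raised and 34.1% lowered of all genes in that model. INPP5D (SHIP1), which removes the 5-phosphate of the PI3K product, was raised from 84.7, 94.2 and 97.8 normalized counts to 649, 616 and 820 with NT siRNA (2.93 ± 0.14, edgeR adjusted p = 2.78e-06) and by 2.48 with FOXA1 siRNA. FOXA1 siRNA lowered INPPL1 (SHIP2), by log2 fold changes of -0.96 in DMSO and -0.71 in lapatinib, and PHLPP1, which dephosphorylates AKT (-0.44 and -0.51). It raised PHLPP2, a paralog with the same activity, by 0.34 in DMSO and 0.61 in lapatinib, and INPP5J by 0.86 and 0.91.

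Among the kinases, activators and modulators of AKT, lapatinib with NT siRNA raised 4 of 12 tested genes and lowered 4. These are 33.3% each, near the 30.5% raised and 29.2% lowered of all genes. RICTOR, the subunit that defines the AKT kinase complex mTORC2, was raised by 0.80 after NT siRNA and 0.61 after FOXA1 siRNA, while MTOR was lowered after both (-0.39 and -0.32). FOXA1 siRNA lowered the pseudokinase TRIB2 (-0.65 in DMSO and -1.15 in lapatinib) and its relative TRIB3 (-0.61 and -0.87). Of the 18 tested genes below AKT, lapatinib with NT siRNA raised 3 and lowered 6 (16.7% and 33.3%, against the same shares of all genes). TSC1 and TSC2, which together restrain mTORC1, were raised by 0.94 and 0.39, and RPS6KB2, an S6 kinase, was lowered (-0.64). FOXA1 siRNA raised DDIT4, an inhibitor of mTORC1, from 3693, 6184 and 3325 normalized counts to 9674, 12154 and 9352 in DMSO (1.25 ± 0.23, edgeR adjusted p = 0.00324). In lapatinib it raised DDIT4 by 1.14.

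**Figure D4:**
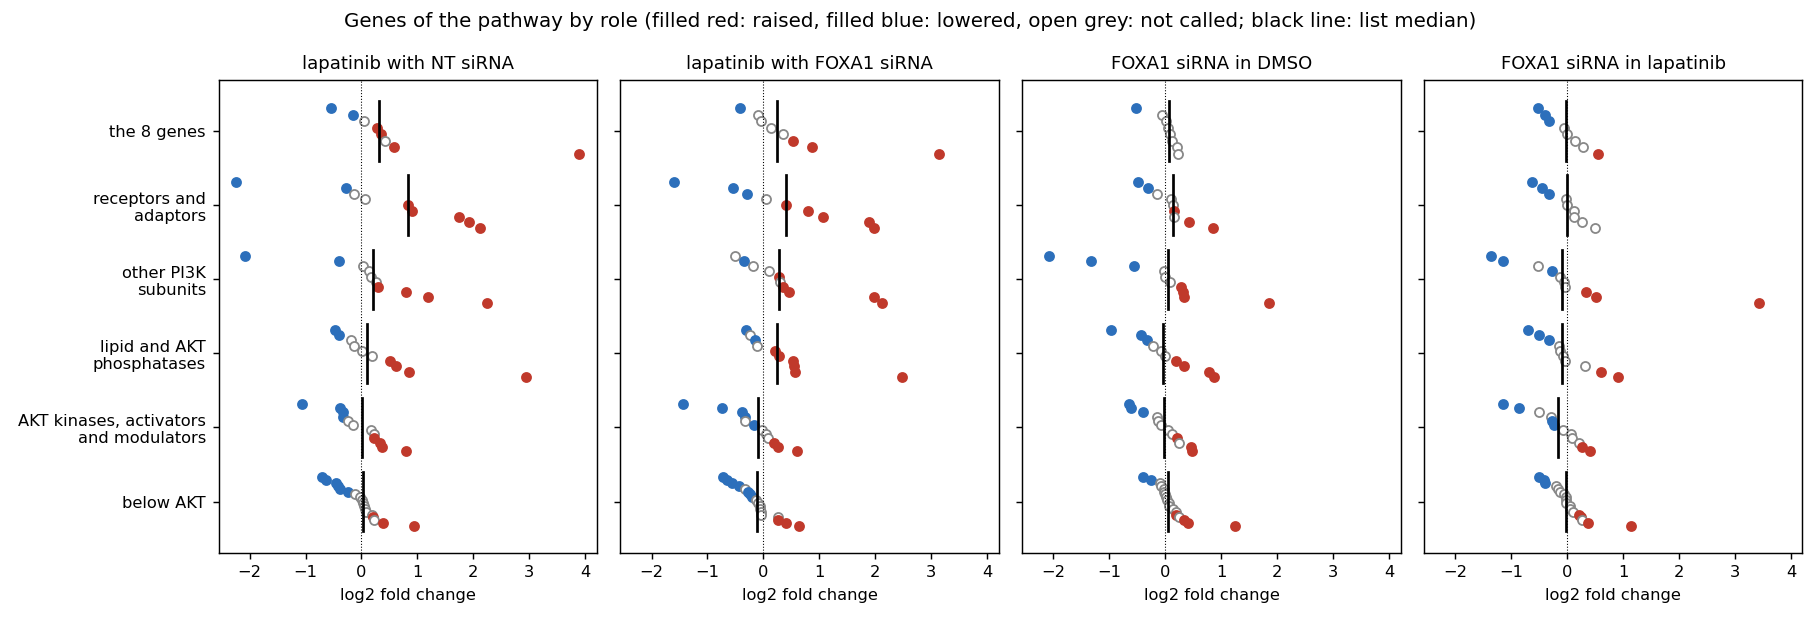
Log2 fold change (horizontal axis) of the 8 genes and of the 59 tested genes of 5 further pathway lists in the 4 comparisons, with 1 point per gene, filled where called (red raised, blue lowered), and a black line at each list's median. Raised and lowered genes occur in every list after lapatinib, and the farthest points include genes of low counts that the text does not name.

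The genes whose pattern over the 12 libraries lay closest to each of the 3 most variable members were found among 10812 genes by the root mean square difference of log2 normalized counts after centring each gene. For IRS2 they were KLHL38 (0.39), C5orf41 (0.39) and SEMA6C (0.39). For INPP4B they were FOXD1 (0.11), CTSL1 (0.15) and LMO7 (0.16), and for AKT1 they included SGTA (0.06) and PSIP1 (0.07). SGTA, for example, had mean normalized counts of 2998, 1931, 1963 and 1441 in the order NT siRNA with DMSO and with lapatinib and FOXA1 siRNA with DMSO and with lapatinib, as AKT1 had 9652, 6483, 6648 and 4946. The likeness is a description of these libraries and rests on differences between their groups.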

How the data were processed

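Polyadenylated RNA of 12 SKBR-3 samples was sequenced. The authors deposited per library an expected count per gene (an estimate that need not be whole, and whole here for the 8 genes), a gene length, a TPM value and an upper-quartile normalized signal. Per the methods, reads were aligned to hg38 and abundances estimated with Salmon, whereas the processing notes name RSEM, whose layout the deposited columns have. Stranded counting is not stated in the sources used here. The signal was not used. Expected counts were rounded and tested in R 4.3.3 with edgeR 4.0.16 (quasi-likelihood, TMM, Benjamini-Hochberg), each pair of groups on its 6 samples and the interaction on 12, over genes that reached 10 counts in 1 or more of the samples. Alternatives were RLE and upper-quartile factors, DESeq2 1.42.0, other filters, a log2 fold minimum of 1, all 12 samples in 1 model, a replicate block and leaving out each sample. The fits without the block were run on simulated counts for lapatinib with NT siRNA and for the interaction only. The simulated counts held no effect of the replicate number, so they do not show how the fits behave with paired samples.

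Replicate numbers come from the labels. Same-numbered samples deviated together from their group means (correlation 0.267 to 0.696 over 18 pairs, 10812 genes), so the numbers were taken to pair them. The mean for different numbers was -0.199. Deviations within a group sum to 0, so this negative mean largely follows from the positive values and is no separate evidence. Between replicates, chi-square per degree of freedom was 3.75 to 18.5, so none matched within sampling noise. The 8 genes and the pathway lists were chosen with earlier results of these data known. Other genes were named as the called genes with the 2 largest changes per direction and list at a mean of at least 100 normalized counts, with the values of some given in further comparisons. The CCAAT search was added after the sequences were seen. Some genes that this rule or the search for like patterns covers are not reported here.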

Additional observations from a re-analysis of the deposited data

Results flagged for a closer look

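PIK3R3 was singled out because its response to lapatinib differed between the siRNA pools in the model with the replicate block, with an interaction of -0.38 on the log2 scale (edgeR adjusted p = 0.000192). In the libraries of the same number the log2 difference of lapatinib from DMSO was 0.27, 0.39 and 0.33 with NT siRNA and -0.08, -0.02 and -0.07 with FOXA1 siRNA. Without the block the interaction was not called (edgeR adjusted p = 0.117, and between 0.0681 and 0.121 over the other settings that keep all samples).

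Of the 59 other genes of the pathway tested, 3 had an interaction called by edgeR without the block, each negative, and with the block 9 were negative and 3 positive. These counts lay near the shares of all genes called, 7.19% without the block and 20.4% with it. INSR was at -0.85 ± 0.21 (edgeR adjusted p = 0.0334). INPP5K, a 5-phosphatase, was at -0.31 ± 0.08 (edgeR adjusted p = 0.0358), with 1099, 1186 and 1146 normalized counts against 1995, 2088 and 2033 after lapatinib with NT siRNA, and 1323, 1299 and 1264 against 1777, 2009 and 1818 with FOXA1 siRNA. GSK3B, a kinase that AKT inhibits, was at -0.23 ± 0.05 (edgeR adjusted p = 0.0240), with 3761, 3848 and 3625 normalized counts against 4319, 4239 and 4172 after lapatinib with NT siRNA and 4316, 4253 and 4160 against 4046, 4062 and 4170 with FOXA1 siRNA.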

How the results depend on the processing

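Of 597 alternative fits of the 8 genes, 543 kept direction and call, 30 lost a call, 12 gained one and 12 changed sign, the last all for changes not called. With the replicate block, 5 genes were raised and 2 lowered by lapatinib with FOXA1 siRNA, 1 raised by FOXA1 siRNA in DMSO, 3 raised by it in lapatinib and 1 lowered in the interaction, over all genes 1561 positive and 1292 negative interactions were called against 559 and 449, and the block changed no other call of the 8 genes than those given in the report. Each call it changed among the genes of the pathway was a gain. With a log2 fold minimum of 1, IRS2 alone remained called, with 1 gene raised by lapatinib with either siRNA, 0 lowered, and 0 in either direction after FOXA1 siRNA, and over all genes 910 were raised and 978 lowered by lapatinib with NT siRNA, 678 and 704 with FOXA1 siRNA, 556 and 380 by FOXA1 siRNA in DMSO, 619 and 535 in lapatinib, and 73 and 72 in the interaction. With 10 counts required in every sample, 2 were raised by lapatinib with NT siRNA, as IRS2 was not tested and IRS1 was lost. Leaving out 1 sample at a time gave 1 to 2 lowered by lapatinib with NT siRNA, 0 to 2 raised by FOXA1 siRNA in lapatinib, and 300 to 782 positive and 242 to 583 negative interactions over all genes. Log2 fold changes that changed sign in these fits ranged from -0.0080 to 0.11 for PIK3R1 and lapatinib with NT siRNA, -0.12 to 0.013 for PIK3R3 and lapatinib with FOXA1 siRNA, -0.010 to 0.15 for PIK3R3, -0.041 to 0.049 for PIK3CA and -0.0091 to 0.22 for INPP4B after FOXA1 siRNA in DMSO, -0.035 to 0.024 for AKT2 after FOXA1 siRNA in lapatinib, and -0.12 to 0.30 for IRS1 and -0.086 to 0.010 for PIK3CA in the interaction. The cause of these changes was not tested. Of 84 alternative values of the TPM ratio differences, 79 kept their direction, and those of FOXA1 siRNA in DMSO for IRS2 to IRS1 (-0.21 to 0.38) and PIK3R3 to PIK3R1 (-0.038 to 0.087) changed sign when 1 sample was left out. Levels as length-corrected counts were lower than TPM throughout (AKT1 125 against 238) and put IRS1 at 1.80 and INPP4B at 1.78 with NT siRNA and DMSO. The other genes of the pathway were refitted with the block only. Depth limits IRS2 in DMSO, at 7 to 14 reads a library.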
